A study of Homo sapiens and Mus musculus with 56 samples.

Results

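The B-lineage transcription factors described here are the genes PAX5, EBF1, TCF3, IKZF1, IKZF3, SPIB, BACH2, BCL6, FOXO1 and LEF1. They were chosen by symbol, with earlier results of these data known, so their shares called are not those of a set chosen blind to the data. They are 10 of the 19775 human genes on the array, read by 45 of 41091 human probe sets annotated to 1 gene, and their orthologs are 10 of 18193 mouse genes, read by 27 of 34945 mouse probe sets. A B cell precursor commits to its lineage through a layered set of such factors. The E protein TCF3 and FOXO1 act early, EBF1 and PAX5 install and hold the B cell programme, IKZF1 and IKZF3 move the large pre-B cell out of division, and SPIB, BCL6 and BACH2 shape later B cell stages. In B-precursor leukaemia PAX5, IKZF1 and EBF1 are known for deletions and other lesions.

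Total RNA was measured on 56 Affymetrix arrays, 44 human and 12 mouse. RS4;11 and SEM, human B-precursor leukaemia lines known to carry a KMT2A-AFF1 fusion, and REH, a human B-precursor line known to carry ETV6-RUNX1 and no KMT2A fusion, were grown for 6 days with 3 µM EPZ004777, 10 µM MI-2-2, a combination of these compounds, or DMSO. MOLM-13, a human acute myeloid leukaemia line known to carry KMT2A-MLLT3, and mouse leukaemic cells transformed with MLL-AF9 and kept in interleukin-3, interleukin-6 and stem cell factor were grown for 4 days with 3 µM of either compound, the combination or DMSO. EPZ004777 inhibits DOT1L, the methyltransferase of histone H3 lysine 79, and MI-2-2 blocks the binding of menin to KMT2A proteins. RS4;11 had 3 arrays per treatment and 2 of DMSO, SEM had 3 of EPZ004777 and 2 in each other group, and the other models had 3 per group. Each model is a single line or culture, so replicates measure the spread between arrays of that culture, described as biological in the design text. The combination was read as the doses of the single compounds.

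Values are log2 signals of a probe set, a scale that allows a gene to be compared between arrays but not with another gene. A change is a difference of log2 signals ± its standard error in limma, and a gene was called at an adjusted p under 0.05 over all genes tested (Benjamini-Hochberg). A gene entered a fit if its signal exceeded percentile 40 of the array on 2 or more of the arrays fitted. In whole cultures a lower level per cell cannot be told apart from fewer cells that hold the transcript. Of the 10 B-precursor markers, 9 were on the human array, and all 9 lay above that filter on every array of RS4;11 and SEM, and 8 on every array of REH, where VPREB1 lay below it on all treated arrays. In MOLM-13 under DMSO 6 of the 9 also lay above it on every array, and VPREB1 and DNTT were below it on every array. T cell markers were below the filter on all arrays of a group for 6 or 7 of 10 genes in the B-precursor lines, CD3E, CD3G, CD2, CD5, CD8A and THEMIS among them.

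Some arrays stood apart. REH DMSO replicates 1 and 3 had actin probe sets whose 3' signal exceeded the 5' signal by 3.11 and 3.65 log2 units. The other REH arrays had 2.36 to 2.87, and a larger value is a sign of shorter RNA. The same value for GAPDH was 0.56 and 1.08, against 0.41 to 0.59 on those other arrays, so only replicate 3 stood apart in both. For actin, mouse combination replicates 2 and 3 had 1.12 and 1.99, against 0.38 to 0.63 on the other mouse arrays. In SEM the actin value ran from 1.83 to 1.93 where MI-2-2 was given, alone or combined, and from 2.32 to 2.48 with EPZ004777 or DMSO. There the actin value and MI-2-2 cannot be told apart. The GAPDH value did not separate these SEM arrays. It ran from 0.31 to 0.39 with MI-2-2, alone or combined, and from 0.28 to 0.37 with EPZ004777 or DMSO. The MOLM-13 arrays had medians of 6.18 to 6.25, against 5.54 to 5.66 for the other human lines, so their levels are set against the other lines also after quantile normalization over all human arrays.

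The promoters of 7 members are printed because these members changed in SEM with the combination, SPIB and FOXO1 upward and the other 5 downward. IKZF3, which changed too, had no entry. Each is the 250 bases before the transcript start in RefSeq (GRCh38.p14), read in the direction of the gene. Capitals mark matches, on either strand, to TGGGAA (the core bound by Ikaros proteins), GAGGAA (bound by SPIB and its ETS relatives) or TGAGTCA (bound by BACH proteins with small MAF partners).
SPIB, chr19:50418688-50418937, plus strand: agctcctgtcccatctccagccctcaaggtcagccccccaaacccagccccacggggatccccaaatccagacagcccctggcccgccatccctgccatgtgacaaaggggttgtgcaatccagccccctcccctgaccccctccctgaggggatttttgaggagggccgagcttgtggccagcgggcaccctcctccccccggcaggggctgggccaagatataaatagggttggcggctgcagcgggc
FOXO1, chr13:40666642-40666891, minus strand: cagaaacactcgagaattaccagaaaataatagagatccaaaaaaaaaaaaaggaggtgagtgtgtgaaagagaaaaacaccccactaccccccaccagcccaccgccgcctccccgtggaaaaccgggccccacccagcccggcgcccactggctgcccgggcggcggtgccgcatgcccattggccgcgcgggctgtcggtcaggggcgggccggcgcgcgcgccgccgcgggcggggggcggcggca
BACH2, chr6:90296844-90297093, minus strand: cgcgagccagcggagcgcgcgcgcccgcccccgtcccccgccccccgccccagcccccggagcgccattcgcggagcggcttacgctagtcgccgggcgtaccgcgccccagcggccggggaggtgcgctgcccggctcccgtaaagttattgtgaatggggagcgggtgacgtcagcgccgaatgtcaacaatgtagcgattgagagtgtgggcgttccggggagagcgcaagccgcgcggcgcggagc
EBF1, chr5:159097957-159098206, minus strand: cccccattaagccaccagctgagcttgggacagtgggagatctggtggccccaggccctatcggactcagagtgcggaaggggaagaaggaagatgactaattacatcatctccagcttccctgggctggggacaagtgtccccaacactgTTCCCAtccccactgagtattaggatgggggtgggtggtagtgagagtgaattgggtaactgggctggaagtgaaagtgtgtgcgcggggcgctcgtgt
PAX5, chr9:37034269-37034518, minus strand: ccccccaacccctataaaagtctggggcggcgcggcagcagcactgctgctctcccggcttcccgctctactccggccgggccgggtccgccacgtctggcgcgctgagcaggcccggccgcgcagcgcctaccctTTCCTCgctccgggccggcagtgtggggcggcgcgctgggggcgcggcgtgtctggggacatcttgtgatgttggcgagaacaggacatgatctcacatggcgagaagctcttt
LEF1, chr4:108166302-108166551, minus strand: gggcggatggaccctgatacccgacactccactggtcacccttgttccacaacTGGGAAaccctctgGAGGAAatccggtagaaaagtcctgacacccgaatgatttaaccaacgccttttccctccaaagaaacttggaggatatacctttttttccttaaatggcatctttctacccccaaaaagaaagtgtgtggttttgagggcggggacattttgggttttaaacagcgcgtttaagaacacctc
IKZF1, chr7:50304466-50304715, plus strand: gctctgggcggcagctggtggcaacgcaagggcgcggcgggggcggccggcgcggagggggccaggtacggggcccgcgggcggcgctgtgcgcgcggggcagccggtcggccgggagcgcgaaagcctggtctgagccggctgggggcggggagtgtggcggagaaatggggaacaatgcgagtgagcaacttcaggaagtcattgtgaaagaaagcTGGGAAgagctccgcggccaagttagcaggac

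The table held 12 promoters of 9 members, with 3 starts for IKZF1 and 2 for BCL6. TGGGAA stood in 3 of the 12 windows and in 20.8% of all 35116 promoters of this length, GAGGAA in 3 and 23.6%, and TGAGTCA in 1, the BCL6 window at chr3:187736502-187736751, and 4.2%. The matches did not overlap each other. CAGGTG (the E-box of TCF3), the EBF1 palindrome, TTCCTNGAA (BCL6), GTAAACA (FOXO1) and CTTTGAT (LEF1) had no match in the 12, beside 17.5%, 1.06%, 1.37%, 2.98% and 2.26% of all promoters, which says only that these letters are not in these windows. Base composition varied widely, from 32.8% G and C at an IKZF1 start to 79.6% at TCF3, with a median of 61.8% against 58.0% over all promoters. CpG pairs numbered 40 in the BACH2 window and 7 in the SPIB window, against a median of 11 over all promoters.

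The untreated lines differed in several of these factors, in the comparisons with REH at about the share of all genes. Between the B-precursor lines, DMSO levels differed for 6 of 10 members in RS4;11 against SEM, 5 in RS4;11 against REH and 6 in SEM against REH, where 34.3%, 55.8% and 56% of all 15853 genes tested were called (limma, fit of 44 arrays). FOXO1, a forkhead factor that drives early B cell genes and the recombinase genes, separated the lines most: its log2 signal averaged 11.18 ± 0.01 in RS4;11 (SD, n = 2), 8.65 ± 0.09 in SEM (n = 2) and 12.23 ± 0.08 in REH (n = 3). All neighbours in the order REH, RS4;11, SEM differed (RS4;11 minus REH of -1.05 ± 0.09 and RS4;11 minus SEM of 2.53 ± 0.10). BACH2, a repressor that holds B cells short of plasma cell fate, averaged 8.30 ± 0.07 in RS4;11, 9.44 ± 0.03 in SEM and 10.23 ± 0.52 in REH, and each step in that order was called. SPIB, an ETS factor of B cells and plasmacytoid dendritic cells, averaged 6.92 ± 0.10 in RS4;11, 6.12 ± 0.05 in SEM and 7.45 ± 0.26 in REH, with each neighbour called in the order REH, RS4;11, SEM.

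IKZF3, which encodes Aiolos, an Ikaros relative that appears as precursors mature, was dim in all 3 lines: 6.31 ± 0.13 in RS4;11, 5.05 ± 0.12 in SEM and 4.43 ± 0.56 in REH, the last with a mean at percentile 32.9 of the array. Its neighbours RS4;11 and SEM differed by 1.27 ± 0.23 and SEM and REH by 0.61 ± 0.21 (adjusted p = 3.31e-05 and 0.0131 in limma). The DMSO arrays of SEM (5.13 and 4.96) and REH (4.24, 3.99 and 5.07) overlapped, near the filter level or below it. BCL6, a repressor of germinal centre B cells that also protects pre-B cells, averaged 11.58 ± 0.02 in RS4;11, 10.72 ± 0.01 in SEM and 11.59 ± 0.20 in REH, and only RS4;11 and REH were not called apart. IKZF1, which encodes Ikaros, averaged 12.95 ± 0.03 in RS4;11, above 12.50 ± 0.04 in SEM and 12.58 ± 0.02 in REH, which were not called apart. PAX5, the factor that holds B cell identity, averaged 11.18 ± 0.08 in RS4;11, 11.56 ± 0.02 in SEM and 11.12 ± 0.16 in REH, and SEM minus REH was called (0.44 ± 0.15, adjusted p = 0.0142 in limma). RS4;11 minus SEM was -0.39 ± 0.17 with an adjusted p of 0.0759, and called in the fit of 32 arrays without MOLM-13 (adjusted p = 0.00123). EBF1, LEF1 and TCF3 had no called difference between these lines, with EBF1 at 12.92 to 13.11 and LEF1 at 13.58 to 13.68 on average.

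Of the 10 chosen probe sets, 5 did not pass the filter in MOLM-13. Under DMSO its PAX5 lay at 4.49 to 5.40, EBF1 at 4.17 to 5.15, LEF1 at 3.48 to 5.10, BACH2 at 5.01 to 5.09 and IKZF3 at 4.92 to 5.10, where percentile 40, the filter level, was 5.48 to 5.50. Another probe set of PAX5 (5.64 to 5.87) and of LEF1 (6.03 to 6.08) lay just above that level. Among members that passed the filter in both lines, MOLM-13 minus REH after quantile normalization was -5.30 for FOXO1 and -3.29 for BCL6, both called (limma). IKZF1 differed by -0.47 ± 0.05 on that scale and by 0.31 ± 0.05 in the deposited values, a change of sign. In the deposited values, where the median gene was higher in MOLM-13, 8 members differed from RS4;11, 9 from SEM and 10 from REH, beside 85.4%, 86.3% and 87.4% of all genes. After quantile normalization these counts were 9, 8 and 9, beside 74.8%, 74.1% and 81.1%.

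**Figure D1:**
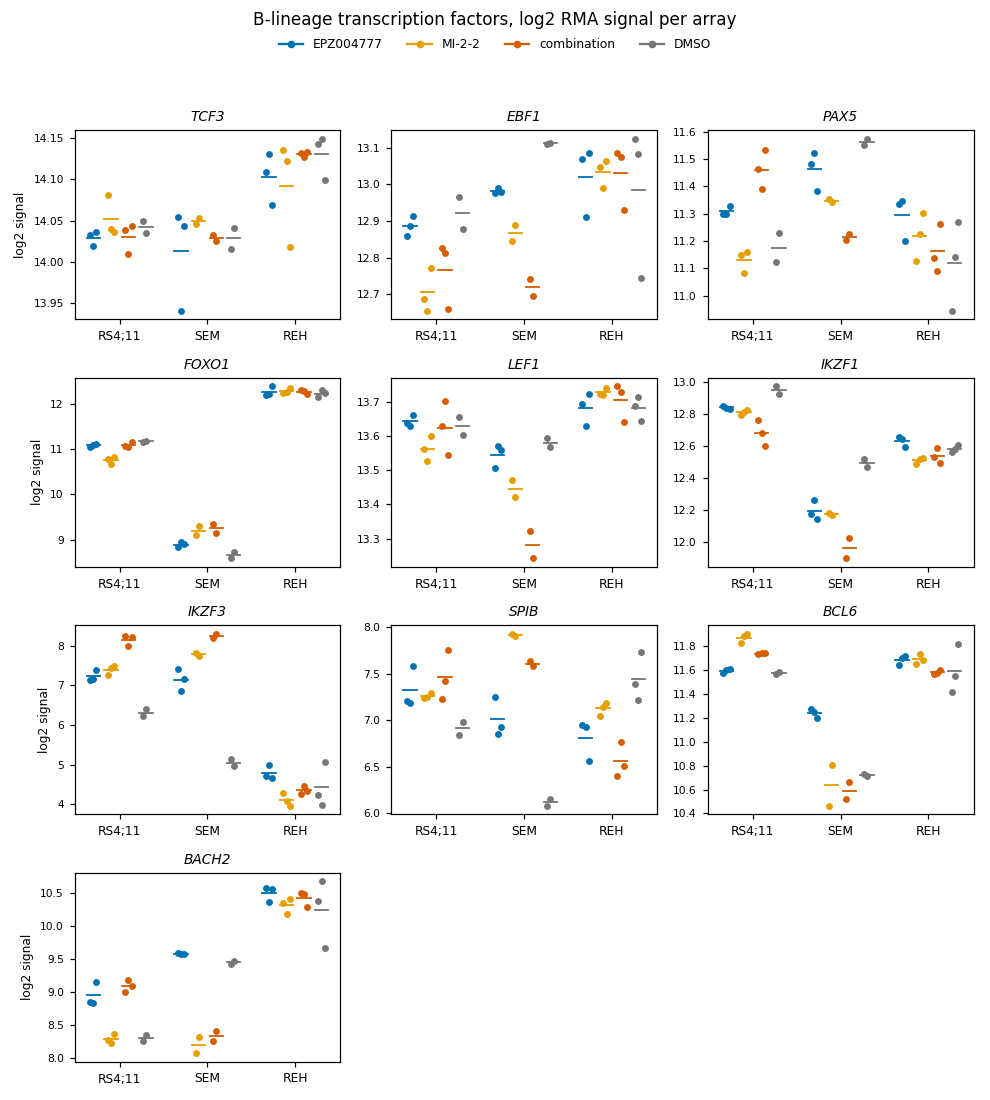
Log2 RMA signal (vertical axes, a different range in each panel) of each factor on every array of RS4;11, SEM and REH, with points for arrays, short lines for group means and colours for treatment. IKZF3 and SPIB stand above DMSO on all treated arrays of RS4;11 and SEM, while the SEM panels of BACH2, EBF1, IKZF1 and LEF1 place the combination below DMSO.

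IKZF3 rose with every treatment in both KMT2A-AFF1 lines. In SEM its log2 signal was 7.41, 6.85 and 7.15 with EPZ004777, 7.81 and 7.74 with MI-2-2 and 8.20 and 8.30 with the combination, against 5.13 and 4.96 with DMSO. Every treated array exceeded every DMSO array by more than 1.5 log2 units. Those DMSO values lay just above the filter level, at percentiles 43.7 and 41 of the array. The changes were 2.09 ± 0.15, 2.73 ± 0.16 and 3.21 ± 0.16, that is 4.25-, 6.65- and 9.23-fold (adjusted p = 0.000273, 4.73e-05 and 6.52e-06 in limma). RS4;11 gave 7.12, 7.16 and 7.39 with EPZ004777, 7.26, 7.44 and 7.48 with MI-2-2 and 8.25, 7.99 and 8.22 with the combination, against 6.22 and 6.41 with DMSO. Again no treated array overlapped DMSO, and the combination lay above both compounds. The changes there were 0.91 ± 0.11, 1.08 ± 0.11 and 1.84 ± 0.11 (adjusted p = 0.000733, 0.000139 and 9.07e-07). The gene lies at chr17:39757715-39864312, and another of its probe sets rose as well, by 1.13 in RS4;11 and 1.43 in SEM with the combination. With EPZ004777 that other probe set changed by 0.56 and 0.72 without a call. The remaining probe set of the gene did not pass the filter. In REH the values were 4.70, 5.001 and 4.66 with EPZ004777, 4.29, 4.07 and 3.96 with MI-2-2 and 4.26, 4.47 and 4.35 with the combination, against 4.24, 3.99 and 5.07 with DMSO. The REH groups overlapped at a level near the floor of the array, and no change was called (0.35 ± 0.22, -0.32 ± 0.22 and -0.08 ± 0.22).

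SPIB rose in SEM with each treatment and in RS4;11 with the combination, and fell in REH. SEM gave 7.25, 6.86 and 6.92 with EPZ004777, 7.93 and 7.90 with MI-2-2 and 7.63 and 7.58 with the combination, against 6.08 and 6.15 with DMSO. All treated arrays lay above DMSO, MI-2-2 highest. The changes were 0.90 ± 0.11, 1.80 ± 0.12 and 1.49 ± 0.12 (adjusted p = 0.00371, 9.94e-05 and 8.73e-05 in limma), or 1.86-, 3.49- and 2.81-fold. In RS4;11 the values were 7.20, 7.18 and 7.58 with EPZ004777, 7.24, 7.25 and 7.29 with MI-2-2 and 7.23, 7.42 and 7.75 with the combination, against 6.85 and 6.98 with DMSO. Only the combination was called (0.55 ± 0.15, adjusted p = 0.0223), and this call was lost without either DMSO array (highest adjusted p = 0.135). REH gave 6.95, 6.92 and 6.56 with EPZ004777, 7.05, 7.15 and 7.18 with MI-2-2 and 6.40, 6.77 and 6.51 with the combination, against 7.39, 7.22 and 7.73 with DMSO. No treated REH array reached the DMSO range. The REH changes were -0.64 ± 0.15, -0.32 ± 0.15 and -0.89 ± 0.15, with adjusted p = 0.0303, 0.263 and 0.00326 in limma. Without DMSO replicates 1 and 3 the first and the last were -0.41 and -0.66 and neither was called (adjusted p = 0.274 and 0.0709). The EPZ004777 call was also lost without any single EPZ004777 array, without MI-2-2 replicate 3 and without either of those DMSO arrays. SPIB lies at chr19:50418938-50431314, and its other probe set rose by 1.14, 2.23 and 2.00 in SEM and fell in REH with the combination (-0.73). In RS4;11 that probe set was called with MI-2-2 (0.48, adjusted p = 0.0451) and not with the combination (0.30, adjusted p = 0.138 in limma).

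BACH2 moved in opposite directions in RS4;11 and SEM. In RS4;11 it read 8.85, 8.83 and 9.15 with EPZ004777, 8.27, 8.23 and 8.36 with MI-2-2 and 8.996, 9.18 and 9.09 with the combination, against 8.25 and 8.34 with DMSO. The arrays with EPZ004777, alone or combined, stood apart from the others. The changes were 0.65 ± 0.10, -0.01 ± 0.10 and 0.79 ± 0.10 (adjusted p = 0.00327, 0.959 and 0.000236 in limma). In SEM it read 9.58, 9.57 and 9.57 with EPZ004777, 8.07 and 8.31 with MI-2-2 and 8.25 and 8.40 with the combination, against 9.42 and 9.47 with DMSO. There the arrays with MI-2-2, alone or combined, lay more than 1 log2 unit below DMSO. The 3 changes were 0.13 ± 0.09, -1.25 ± 0.09 and -1.12 ± 0.09 (adjusted p = 0.393, 0.000142 and 9.34e-05). REH values were 10.56, 10.36 and 10.56 with EPZ004777, 10.34, 10.18 and 10.40 with MI-2-2 and 10.50, 10.48 and 10.28 with the combination, against 10.37, 10.67 and 9.66 with DMSO, and nothing was called. The low DMSO array was replicate 3. The gene spans chr6:89926528-90296843, and both of its probe sets, each of a kind that may bind other transcripts too, gave the same calls in all 3 lines.

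FOXO1 fell in RS4;11 with MI-2-2 and rose in SEM. RS4;11 gave 11.05, 11.09 and 11.12 with EPZ004777, 10.79, 10.68 and 10.83 with MI-2-2 and 11.07, 11.04 and 11.16 with the combination, against 11.17 and 11.19 with DMSO. The MI-2-2 arrays were the lowest, and the change of -0.41 ± 0.07 had an adjusted p of 0.00253 (limma), against -0.09 ± 0.07 for both EPZ004777 and the combination. SEM gave 8.84, 8.94 and 8.89 with EPZ004777, 9.10 and 9.30 with MI-2-2 and 9.34 and 9.15 with the combination, against 8.59 and 8.72 with DMSO. All treated SEM arrays exceeded DMSO, and MI-2-2 (0.55 ± 0.10) and the combination (0.59 ± 0.10) were called (adjusted p = 0.00826 and 0.00341). The MI-2-2 call in SEM was lost without MI-2-2 replicate 3 or DMSO replicate 2. In REH all 12 arrays lay between 12.15 and 12.39 and the changes were 0.04 to 0.05. The other probe sets of the gene (chr13:40555667-40666641) made no call in these lines, and with the mean of the 3 probe sets the SEM calls were lost.

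BCL6 rose with MI-2-2 in RS4;11 and with EPZ004777 in SEM. In RS4;11 it read 11.57, 11.60 and 11.60 with EPZ004777, 11.82, 11.88 and 11.90 with MI-2-2 and 11.73, 11.74 and 11.74 with the combination, against 11.56 and 11.59 with DMSO. The MI-2-2 change was 0.29 ± 0.06 (adjusted p = 0.00624 in limma), and it was lost without DMSO replicate 2 (adjusted p = 0.0561). In SEM it read 11.28, 11.25 and 11.19 with EPZ004777, 10.47 and 10.81 with MI-2-2 and 10.52 and 10.66 with the combination, against 10.73 and 10.71 with DMSO. The EPZ004777 arrays lay above DMSO (0.52 ± 0.10, adjusted p = 0.0209), and the combination arrays lay below it without a call (-0.13 ± 0.11, adjusted p = 0.423 in limma). The EPZ004777 call was lost without EPZ004777 replicate 2 or either DMSO array (adjusted p up to 0.124 over all alternatives).

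The chosen probe sets of EBF1, PAX5, IKZF1 and LEF1 changed little in size, mostly downward and mostly in SEM. Other probe sets of EBF1, IKZF1 and LEF1 fell by more in SEM with the combination. On SEM DMSO arrays the chosen EBF1 and LEF1 probe sets lay near the top of the array, at percentiles 99.4 and 99.6. Whether that level limited their changes was not tested. EBF1, which opens B cell genes ahead of PAX5, read 12.84 and 12.89 with MI-2-2 and 12.74 and 12.70 with the combination in SEM, against 13.11 and 13.11 with DMSO (-0.25 ± 0.06 and -0.39 ± 0.06, adjusted p = 0.0297 and 0.00237 in limma). Every treated SEM array was below DMSO, EPZ004777 included at 12.98 to 12.99. The MI-2-2 call was lost without EPZ004777 replicate 3, either MI-2-2 array or either DMSO array. Another 2 of the 4 EBF1 probe sets fell with the combination too (-0.64 and -0.59). PAX5 differed in direction between the lines with the combination. It read 11.20 and 11.22 in SEM with the combination, against 11.55 and 11.57 with DMSO (-0.35 ± 0.07, adjusted p = 0.00764). In RS4;11 it read 11.46, 11.39 and 11.53 with the combination, against 11.12 and 11.23 with DMSO (0.29 ± 0.07, adjusted p = 0.00992), a call lost without DMSO replicate 2 and with the mean of its probe sets (0.084).

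IKZF1 fell in SEM with all 3 treatments, to 12.18, 12.26 and 12.14 with EPZ004777, 12.18 and 12.17 with MI-2-2 and 11.90 and 12.03 with the combination, against 12.52 and 12.47 with DMSO. No treated array overlapped DMSO. The changes were -0.30 ± 0.07, -0.32 ± 0.08 and -0.53 ± 0.08 (adjusted p = 0.0352, 0.0233 and 0.00146 in limma). With the combination all 9 IKZF1 probe sets were lower than DMSO in SEM, 7 of them called, between -1.04 and -0.49 where called. The single-compound calls were lost without any of several arrays: for EPZ004777 replicates 1 and 3, MI-2-2 replicates 1 and 3 and DMSO replicates 2 and 3, and for MI-2-2 the same MI-2-2 and DMSO arrays. In RS4;11 IKZF1 read 12.76, 12.68 and 12.60 with the combination, against 12.97 and 12.93 with DMSO (-0.27 ± 0.06, adjusted p = 0.0103), lost without DMSO replicate 2 and with the mean of its probe sets (-0.048). LEF1, a partner of beta-catenin that pre-B cells express, fell in SEM with the combination to 13.32 and 13.24, against 13.59 and 13.57 with DMSO (-0.30 ± 0.07, adjusted p = 0.0119), while its other probe sets fell by more (-0.83 and -1.06). That LEF1 call was lost without combination replicate 3 or either DMSO array.

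TCF3, the E protein that starts the B cell programme and is blocked by ID proteins, had no call. The probe set taken for it lay at 13.94 to 14.15 on all arrays of the 3 B-precursor lines, at percentile 99.9, unlike its other 13 probe sets, whose DMSO means in SEM ran from 5.005 to 12.85. What that probe set reads was not tested. Of the other probe sets, 3 fell in SEM with the combination (-0.26, -0.45 and -0.48) and 9 in MOLM-13 (-0.41 to -0.25). The mean of the 14 probe sets was lower in SEM with the combination by -0.27 (adjusted p = 0.0200 in limma).

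Counted over the set, RS4;11 had 2 of 10 members called with EPZ004777, 3 under MI-2-2 and 5 under the combination, beside 6.59%, 12.7% and 23.7% of all 13867 genes tested. Of those 5, 4 rose and 1 fell, beside 11.2% and 12.4% of genes in those directions. SEM had 4, 6 and 8, beside 8.66%, 17.8% and 29.6% of 13967 genes, and of the 8 with the combination 3 rose and 5 fell, beside 14.3% and 15.2% of genes. REH had 1, 0 and 1, SPIB each time, beside 3.95%, 1.25% and 7.03% of 13888 genes, and 1 member had an unadjusted p under 0.05 in each of its comparisons (limma). The median change of the 10 members was 0.02, -0.03 and 0.08 in RS4;11 and 0.06, -0.11 and -0.21 in SEM in the same order, against medians of -0.04, -0.03 and -0.04 and of -0.05, 0.01 and -0.02 over all genes. For the uncalled members of REH the 95% intervals reached from -0.80 to 0.83 at the widest. With the actin value as a covariate 2 of the 18 SEM calls were left, IKZF3 and SPIB with EPZ004777, at 2.19 ± 0.19 and 0.96 ± 0.15. In that fit 2.36%, 0% and 0.1% of all genes were called under the 3 treatments (limma), and the median standard error over genes was 0.545 for MI-2-2, against 0.104 without the covariate. The uncalled changes with MI-2-2 and the combination were 3.46 and 3.91 for IKZF3, 2.26 and 1.94 for SPIB and -0.48 and -0.37 for BACH2.

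**Figure D2:**
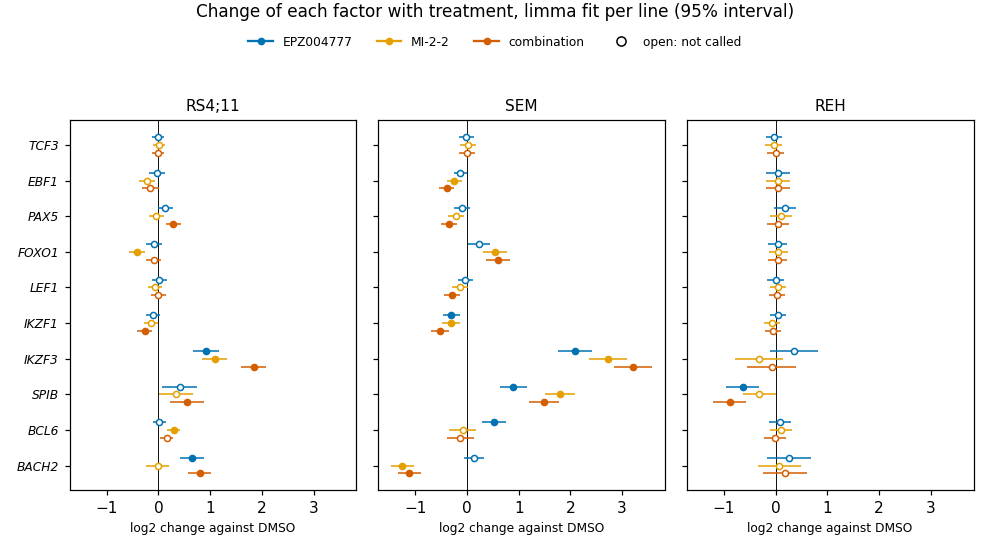
Log2 change against DMSO (horizontal axis) with its 95% interval for each factor in RS4;11, SEM and REH, filled where called and open where not. IKZF3 reaches 3.21 in SEM and 1.84 in RS4;11 with the combination, BACH2 stands at -1.12 in SEM and 0.79 in RS4;11, and in REH only SPIB is filled.

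Whether the response of the KMT2A-AFF1 lines differed from that of REH was tested by subtracting the REH effect from the average effect of RS4;11 and SEM (fit of 32 arrays). With EPZ004777 3 of 10 members differed, with MI-2-2 3 and with the combination 4, beside 5.27%, 13.7% and 20.7% of all 14919 genes. IKZF3 differed by 1.15 ± 0.23, 2.23 ± 0.23 and 2.60 ± 0.23, and SPIB by 1.29 ± 0.18, 1.39 ± 0.18 and 1.91 ± 0.18 (adjusted p from 0.00254 to 1.00e-08 and from 6.20e-05 to 3.39e-08 in limma). These 6 differences kept their calls under every alternative, including without REH DMSO replicates 1 and 3, though IKZF3 with EPZ004777 was then 0.70 (adjusted p = 0.0482 in limma). IKZF1 differed by -0.25 ± 0.07 with EPZ004777 and -0.35 ± 0.07 with the combination, BACH2 by -0.71 ± 0.20 with MI-2-2 and EBF1 by -0.32 ± 0.10 with the combination (adjusted p = 0.029, 0.000618, 0.0175 and 0.025). Against DMSO, BACH2 with MI-2-2 changed by -0.01 in RS4;11 and by -1.25 in SEM, so RS4;11 did not share that fall. Without the 2 REH arrays only the IKZF1 difference with the combination of these 4 was still called, and BACH2 with EPZ004777 became called (0.56 ± 0.15, adjusted p = 0.0284). Leaving out a single array also ended the calls of IKZF1 with EPZ004777 (RS4;11 DMSO replicate 2, SEM EPZ004777 replicate 3, SEM DMSO replicate 2, REH EPZ004777 replicate 1 or 2), BACH2 (REH MI-2-2 replicate 3) and EBF1 (RS4;11 DMSO replicate 2, REH combination replicate 1 or 2, REH DMSO replicate 3).

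Because several members moved oppositely in RS4;11 and SEM, the difference between those lines was also tested, a comparison added after the values were seen. The effect in RS4;11 minus that in SEM was called for 2 members under EPZ004777, 4 under MI-2-2 and 6 under the combination, beside 3.92%, 6.69% and 12.8% of 14919 genes. BACH2 differed by 1.24 ± 0.25 under MI-2-2 and by 1.91 ± 0.25 under the combination (adjusted p = 0.00191 and 4.49e-06 in limma), and PAX5 by 0.63 ± 0.12 with the combination (adjusted p = 0.000556). FOXO1 differed by -0.96 ± 0.12 and -0.68 ± 0.12 with MI-2-2 and the combination. IKZF3, which rose in both, rose less in RS4;11, by -1.17 ± 0.28, -1.65 ± 0.30 and -1.37 ± 0.30 over the 3 treatments, as did SPIB with MI-2-2 (-1.46 ± 0.24) and the combination (-0.94 ± 0.24). BCL6 with EPZ004777 (-0.51 ± 0.13, adjusted p = 0.0202) and LEF1 with the combination (0.29 ± 0.09, adjusted p = 0.0255) completed the calls. Leaving out a single array ended the call for BCL6 (any DMSO array of the pair of lines), for IKZF3 with EPZ004777 (DMSO replicate 3 of either line) and for LEF1 (RS4;11 combination replicate 2 or DMSO replicate 3, SEM combination replicate 3 or DMSO replicate 2 or 3).

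**Figure D3:**
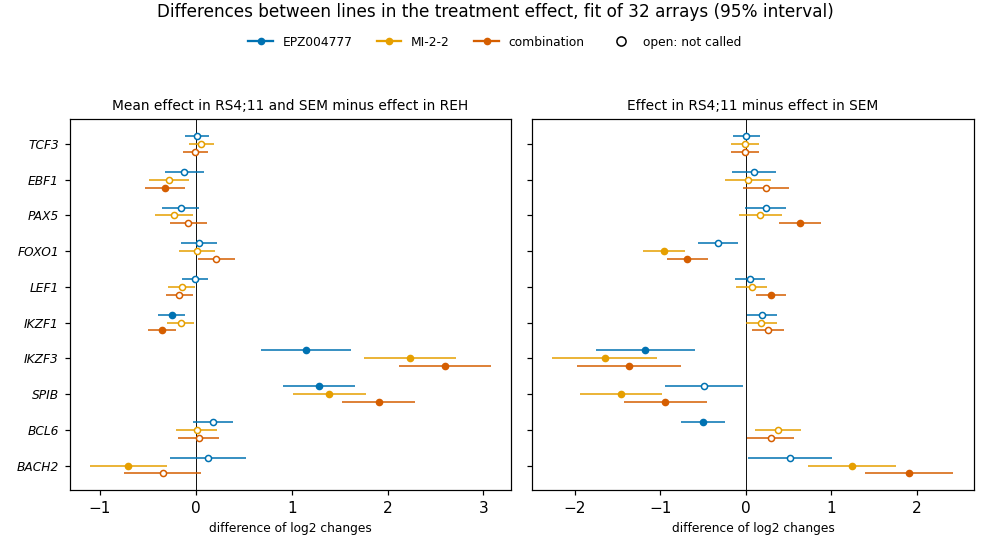
Difference between lines in the log2 change (horizontal axes) with its 95% interval, filled where called: on the left the mean of RS4;11 and SEM minus REH, on the right RS4;11 minus SEM. IKZF3 and SPIB lie right of 0 on the left, from 1.15 to 2.60, and BACH2, at 1.91 with the combination, lies opposite to FOXO1, at -0.68, on the right.

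The combination was set against each compound alone in the same fits. In RS4;11 it exceeded EPZ004777 for IKZF3 (0.93 ± 0.10), the 1 member called beside 19.6% of all genes. It exceeded MI-2-2 for BACH2 (0.81 ± 0.09), IKZF3 (0.76 ± 0.10), PAX5 (0.33 ± 0.06) and FOXO1 (0.32 ± 0.06), 4 members beside 10.7% of genes (adjusted p from 0.000218 to 0.00598 in limma). In SEM the combination differed from EPZ004777 for 9 members, all but TCF3, beside 26.9% of genes. IKZF3 (1.12 ± 0.15), SPIB (0.60 ± 0.11) and FOXO1 (0.36 ± 0.09) were higher, beside 15.4% of genes, and 6 were lower, BACH2 (-1.25 ± 0.09) and BCL6 (-0.65 ± 0.10) by most, beside 11.5%. Single arrays ended the calls of IKZF1 (any SEM array), PAX5 (either combination array or EPZ004777 replicate 2), FOXO1 (combination replicate 1, EPZ004777 replicate 1 or 3), LEF1 (combination replicate 3 or EPZ004777 replicate 3) and EBF1 (combination replicate 3). No member of SEM was called between the combination and MI-2-2, beside 4.72% of genes, though 5 had an unadjusted p under 0.05 (limma). REH had no call in either comparison, beside 0.108% and 1.81% of genes, with 0 and 1 members at an unadjusted p under 0.05, and no interaction call, beside 0.0% of genes and 0 members at that p. A departure from the sum of the single effects was called for IKZF3 (-1.62 ± 0.22) and SPIB (-1.20 ± 0.17) in SEM, beside 1.01% of genes, and for FOXO1 in RS4;11 (0.41 ± 0.09, adjusted p = 0.0464), beside 1.96%. The SEM departures were lost without either combination, MI-2-2 or DMSO array, and the FOXO1 departure without any array of RS4;11.

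**Figure D4:**
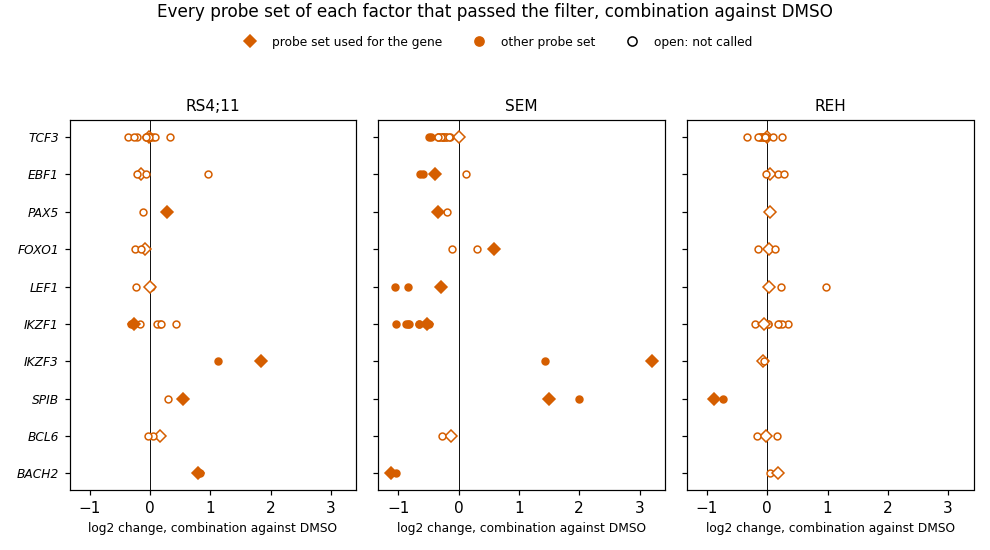
Log2 change with the combination against DMSO (horizontal axis) of every probe set of each factor that passed the filter in RS4;11, SEM and REH, diamonds for the probe set used and circles for the others, filled where called. The 2 BACH2 probe sets fall together in SEM and rise together in RS4;11, all 9 IKZF1 probe sets lie below 0 in SEM, and the TCF3 diamond lies at 0 while 3 TCF3 circles are filled below it.

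MOLM-13 raised BCL6 and FOXO1. BCL6 read 9.80, 9.83 and 10.17 with EPZ004777, 9.78, 9.76 and 9.91 with MI-2-2 and 11.00, 11.02 and 10.90 with the combination, against 9.08, 9.01 and 9.06 with DMSO. FOXO1 read 8.69, 8.68 and 8.75 with EPZ004777, 8.69, 8.91 and 8.84 with MI-2-2 and 10.35, 10.04 and 10.20 with the combination, against 7.70, 7.70 and 7.35 with DMSO. Every treated array lay above DMSO and the combination above both compounds. BCL6 changed by 0.89 ± 0.09, 0.77 ± 0.09 and 1.93 ± 0.09, and FOXO1 by 1.13 ± 0.11, 1.23 ± 0.11 and 2.61 ± 0.11, up to 6.12-fold (adjusted p from 0.000193 to 1.31e-08 in limma). The other FOXO1 probe set that passed the filter changed by less, 0.21, 0.26 and 0.84, and was called only with the combination. Of 3 BCL6 probe sets 2, 1 and 2 were called upward, and the smallest changes were 0.14, 0.21 and 0.20. SPIB fell with the combination, to 6.02, 5.79 and 5.65, against 6.31, 6.74 and 6.73 with DMSO (-0.78 ± 0.18, adjusted p = 0.00343). That made 2, 2 and 3 of the 5 members tested, beside 27.8%, 18.6% and 49.5% of all 14060 genes, and the 7 calls held under every alternative. For IKZF1 and TCF3 the chosen probe set was not called. BCL6 and FOXO1 were also higher with the combination than with EPZ004777 (1.04 and 1.49) and MI-2-2 (1.16 and 1.38), 2 members each time beside 33.3% and 39.6% of genes. No interaction was called for a member (limma), beside 12.9% of genes, and 1 had an unadjusted p under 0.05.

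The mouse cells raised Bcl6 with each treatment. Its log2 signal was 6.62, 6.89 and 6.25 with EPZ004777, 6.31, 6.32 and 6.33 with MI-2-2 and 11.72, 12.20 and 12.02 with the combination, against 4.99, 5.41 and 5.73 with DMSO. All treated arrays exceeded DMSO, and the combination arrays stood far above both compounds. The changes were 1.21 ± 0.21, 0.94 ± 0.21 and 6.61 ± 0.21 (adjusted p = 0.00509, 0.022 and 1.51e-09 in limma). The other Bcl6 probe set differed from DMSO by 0.17, 0.01 and 1.37, called with the combination. The MI-2-2 call was lost without any MI-2-2 array or DMSO replicate 1 or 2. Ikzf3 read 8.65, 7.53 and 7.56 with the combination, against 4.58, 5.43 and 5.55 with DMSO (2.73 ± 0.32, adjusted p = 2.42e-05). Ikzf1 read 12.95, 13.11 and 13.14 with the combination, against 12.60, 12.59 and 12.59 with DMSO (0.48 ± 0.08, adjusted p = 0.000365), but its other probe set fell (-0.73). Those were 1, 1 and 3 of the 7 members tested, beside 5.6%, 5.26% and 64.7% of all 13365 genes. The same 3 were called against EPZ004777 and against MI-2-2, beside 63.5% and 62.6% of genes. Under DMSO the signals of Bcl6 and Ikzf3 lay near the filter level, 5.37 to 5.38, with the lowest array of each below it. The same 3 genes also departed upward from the sum of the single effects (4.45 ± 0.29 for Bcl6, 2.51 ± 0.45 for Ikzf3 and 0.60 ± 0.11 for Ikzf1), beside 48.2% of genes. The part of that low DMSO level in these departures was not tested. Without combination replicates 2 and 3 the changes were 6.34, 3.46 and 0.36, all still called. Tcf3 was then also called, at -1.10 with the combination (adjusted p = 1.00e-04) against -0.38 ± 0.25 with all arrays, and at -0.38 ± 0.09 with EPZ004777 (adjusted p = 0.0267). Ebf1, Bach2 and Spib did not pass the filter, and Pax5, at 5.04 to 5.27 under DMSO, and Lef1 had no call. The chosen Foxo1 probe set had none either, at 8.05, 7.50 and 7.60 with the combination, against 7.63, 7.79 and 7.73 with DMSO, but 2 of the 4 Foxo1 probe sets fell with the combination (-1.46 and -0.39).

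**Figure D5:**
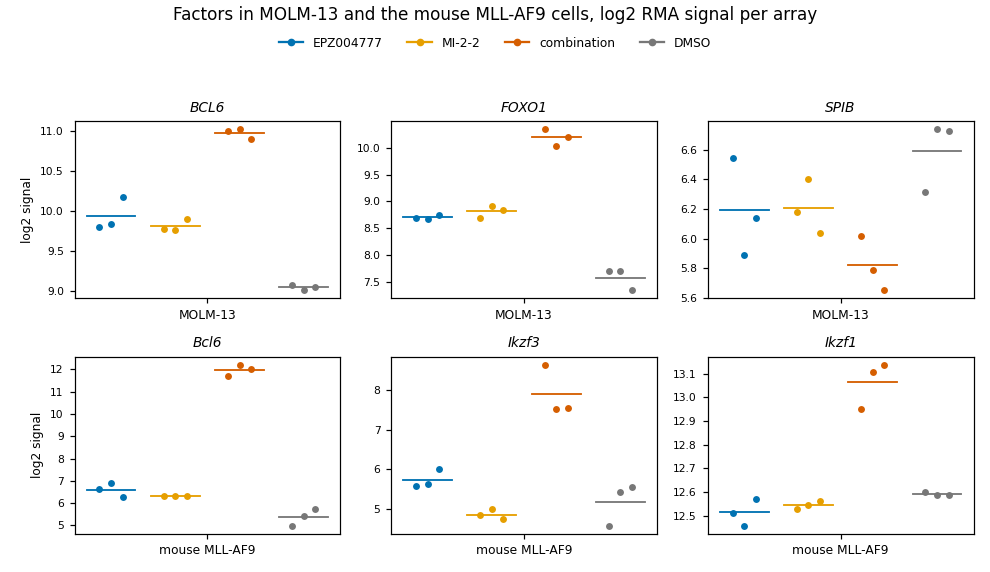
Log2 RMA signal (vertical axes, a different range in each panel) on every array of MOLM-13 (upper row) and the mouse MLL-AF9 cells (lower row), with lines for group means. BCL6 and FOXO1 in MOLM-13 and Bcl6 in the mouse cells step up from the single compounds to the combination, the mouse Bcl6 arrays with the combination lying between 11.72 and 12.20.

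Other regulators of B cell genes, from a list of 30, changed alongside. In SEM 9 rose and 12 fell of 27 tested with the combination, in RS4;11 5 rose and 3 fell of 26, and in REH 2 rose and 1 fell of 26, with median changes of -0.18, -0.02 and 0.04 beside -0.02, -0.04 and -0.004 over all genes. The share of all genes called was 29.6%, 23.7% and 7.03% in those lines. ID2, an inhibitor that binds E proteins such as TCF3, rose in all 3 lines: by 3.01 ± 0.16 in RS4;11, 2.60 ± 0.16 in SEM and 1.66 ± 0.10 in REH with the combination. ERG, an ETS factor of progenitors, fell in SEM (-2.77) and RS4;11 (-1.20), and TCF4, another E protein, rose in SEM (1.72) and RS4;11 (0.45). POU2F2, which encodes the B cell octamer factor OCT2, rose in SEM (1.91), and IRF4 fell in RS4;11 (-0.37). In REH IRF8 rose (0.73) and KLF2 fell (-0.70).

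Among 22 genes known to depend on B-lineage factors, the combination raised 9 and lowered 4 of 20 tested in RS4;11, raised 7 and lowered 3 of 20 in SEM, and raised 1 of 19 in REH, with median changes of 0.11, 0.14 and 0.06, beside 23.7%, 29.6% and 7.03% of all genes called. MS4A1, which encodes CD20, rose by 4.76 in RS4;11 and 5.22 in SEM, BLNK, a pre-B cell receptor adaptor, by 0.96 and 3.49, VPREB3 by 1.97 in RS4;11 and 0.37 in REH, and CD40 by 1.24 in SEM. RAG2, a subunit of the recombinase, fell in SEM (-1.09), and DNTT fell in RS4;11 (-0.72). Plasma cell genes, which BACH2 and PAX5 are known to restrain, had 4 up and 1 down of 7 in RS4;11 and 4 up and 3 down of 7 in SEM, with medians of 0.65 and 0.57. JCHAIN rose by 5.24 and 3.28 and PRDM1, the target repressed by BACH2 and BCL6, by 0.65 and 2.37, while IRF4 fell in SEM (-1.17). On all DMSO arrays JCHAIN lay below the filter in both lines and PRDM1 in SEM, so they entered those fits through treated arrays. Those rises start from signals near the floor, and the upward counts of plasma cell genes are partly set by the filter. Of 12 genes induced by FOXO factors, 3 rose and 1 fell of 11 tested in RS4;11, 2 rose and 3 fell of 10 in SEM, 1 rose and 3 fell of 10 in REH and 6 rose and 2 fell of 10 in MOLM-13 (49.5% of all its genes called), where SESN3 rose by 2.78 and IL7R fell (-3.34). Their medians were 0.05, -0.08, -0.03 and 0.42. Of 10 TCF/LEF targets, 4 rose and 1 fell of 6 tested in RS4;11, 1 rose and 1 fell of 6 in SEM, and 3 rose of 7 in REH, with medians of 0.47, 0.07 and 0.14. LGR5 was up in RS4;11 (1.00) and REH (0.47) and down in SEM (-2.80).

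Myeloid markers moved with these changes. Of 12 listed, the combination raised 7 of 7 tested in SEM and 4 of 6 in RS4;11. REH had 0 raised and 1 lowered of 5 (limma). The medians were 2.35, 1.43 and -0.19, and 29.6%, 23.7% and 7.03% of all genes were called in those lines. In SEM, MPO and FCGR1A lay below the filter on all DMSO arrays, and FCGR1A passed it only with the combination. Genes that entered through treated arrays could hardly be called down, so the SEM count and median are partly set by the filter. The mean log2 level of the 11 on the array was 6.88 to 7.06 with the combination in SEM, against 4.90 to 4.96 with DMSO, and 5.89 to 5.96 in RS4;11, against 5.24 to 5.34. MPEG1, LYZ and ITGAM rose by 6.30, 6.33 and 3.36 in SEM, while ELANE, CD14, CEBPD and CSF3R lay below the filter on all SEM combination arrays. On all RS4;11 combination arrays MPO, ELANE, CD14, CEBPD, FCGR1A and CSF3R lay below it. In MOLM-13 10 of 11 markers rose with the combination (mean level 12.10 to 12.14, against 10.58 to 10.71 with DMSO), beside 49.5% of all genes called. In the mouse cells 8 rose and 1 fell of 10 (12.01 to 12.07, against 8.86 to 10.16), beside 64.7% of all genes called. The part of these genes in the changes of IKZF3, SPIB, BACH2, FOXO1 and BCL6 was not tested.

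The genes whose pattern was most like each factor were taken by correlation over the 12 group means of RS4;11, SEM and REH. The group means of each line, DMSO included, were first centred on their mean, so the 12 values are not independent. IKZF3 was followed most closely by MPEG1 (r = 0.97), IGLC1 (0.962) and DTX4 (0.959), and SPIB by IHO1 (0.958) and RGS19 (0.944). BACH2 was followed by ALDH5A1 (0.982) and ITGB8 (0.969), EBF1 by ASXL1 (0.979), IKZF1 by TESPA1 (0.978) and LEF1 by ZNF140 (0.969) and MYB (0.965). For PAX5 (PSD3, 0.921), BCL6 (MEST, 0.933), FOXO1 (UBXN10-AS1, 0.945) and TCF3 (GEMIN7, 0.894) the closest genes were less alike.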

How the data were processed

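The authors deposited 1 log2 value for each probe set and array, from RMA (affy, R 3.0.2, per the submitters' processing notes); the genome build of the probe annotation is not given in the sources used here. They were used as given. Probe sets with 1 gene symbol were kept (41091 of 54675 human, 34945 of 45101 mouse), human symbols were updated by Entrez identifier, and the brightest probe set of a gene over all arrays of the species stood for it in every model. Each model was fitted in limma 3.58.1 under R 4.3.3 (lmFit, eBayes) with 4 groups, and the differences between lines in joint fits, of 32 arrays for the B-precursor lines and of all 44 human arrays for DMSO levels. The scripts were tested on simulated data with known changes. The number of arrays limits the precision. Replicate numbers were not taken to pair the arrays. Same-numbered arrays had median correlations of deviations between -0.10 and 0.10 over the models, and different-numbered arrays between -0.07 and 0.10. Only in the mouse cells was the same-numbered median the higher (0.099 against -0.068). All 10 members were named in every model, and of each other list up to 4 called genes with the largest change in the combination, and for likeness up to 3 genes. The members and lists were chosen with earlier results of these data known. Alternatives were no filter, quantile normalization, other probe set rules, a replicate block, an actin covariate, array weights, leaving out each array and the fit of 44 arrays; fits without the 2 REH DMSO or the 2 mouse combination arrays and the RS4;11 minus SEM test were added after seeing the data. Array weights could not be used in the mouse cells.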

Additional observations from a re-analysis of the deposited data

Results flagged for a closer look

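The difference between groups of lines in the response to a treatment passed the test for 10 values of the mean of RS4;11 and SEM minus REH. They were IKZF3 (EPZ004777 1.148, MI-2-2 2.232 and combination 2.597), SPIB (1.287, 1.392 and 1.908 in that order), IKZF1 (-0.252 with EPZ004777 and -0.353 with the combination), BACH2 (-0.705 with MI-2-2) and EBF1 (-0.321 with the combination), all as differences of log2 changes.

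The response of RS4;11 minus that of SEM passed the test for 12 values. They were IKZF3 (EPZ004777 -1.174, MI-2-2 -1.649 and combination -1.367), SPIB (-1.458 with MI-2-2 and -0.94 with the combination), BACH2 (1.239 with MI-2-2 and 1.912 with the combination), FOXO1 (-0.958 with MI-2-2 and -0.682 with the combination), BCL6 (-0.505 with EPZ004777), LEF1 (0.294 with the combination) and PAX5 (0.634 with the combination). For BACH2, FOXO1 and PAX5 the changes against DMSO had opposite signs in the 2 lines under at least 1 of these treatments.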

How the results depend on the processing

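Few arrays per group and RNA quality limit these results, and the causes of the shifts below were not tested. Counts of member calls against DMSO went from 10 to between 6 and 11 in RS4;11 when single arrays were left out (6 without DMSO replicate 2; a lone array left in a group is assumed to vary like the other groups), from 18 to between 12 and 18 in SEM, from 2 to between 1 and 2 in REH, from 7 to between 7 and 8 in MOLM-13 and from 5 to between 4 and 7 in the mouse cells. The REH count was 1 with the replicate block, with the actin covariate and with array weights, and 0 without the 2 DMSO arrays. With the actin covariate SEM kept 2 calls, as calls over all genes dropped to 2.36%, 0% and 0.1%. The fit of 44 arrays gave MOLM-13 12. Calls of the combination against either compound, 14, were 9 with the replicate block, 6 with the actin covariate and 10 to 15 without single arrays. The 6 interaction calls were 2 with the mean of probe sets and 4 to 7 without single arrays, those of RS4;11 and SEM minus REH 8 to 12 without single arrays, those of RS4;11 minus SEM 9 to 13, and 20 with array weights, and those of DMSO levels 41 to 45. The replicate block changed 24 single calls in all, 23 of them losses.

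Signs of values called in at least 1 of the settings turned in these cases, all on the log2 scale; other signs turned without a call in either setting. With the mean of probe sets, TCF3 was -0.267 (combination minus DMSO) and -0.264 (combination minus EPZ004777) in SEM and -0.218 in MOLM-13 with the combination, and in mouse cells with the combination Foxo1 was -0.471 and Ikzf1 -0.129, with an Ikzf1 interaction of -0.041. DMSO levels under that rule gave SPIB RS4;11 minus REH 0.07, LEF1 SEM minus REH 0.441, SPIB MOLM-13 minus SEM -0.166 and TCF3 in MOLM-13 minus RS4;11, SEM and REH -0.723, -0.725 and -0.608. Without _s_at and _x_at probe sets mouse Foxo1 was -1.46 with the combination. Quantile normalization gave MOLM-13 minus SEM of -0.343 for IKZF1 and -0.095 for SPIB, and MOLM-13 minus REH of -0.466 for IKZF1 and -0.107 for TCF3. The mouse Tcf3 interaction was -0.565 with the actin covariate and -0.664 without the 2 combination arrays, and IKZF3 MOLM-13 minus SEM was 1.069 with the actin covariate. The IKZF3 and BACH2 calls in RS4;11 against DMSO, IKZF3 and SPIB with EPZ004777 in SEM and the 7 calls of MOLM-13 held in every alternative.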
